A study of Homo sapiens with 12 samples.

Results

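The genes described here are 8 genes of the metallothionein and zinc response: the metallothioneins MT1E, MT1F, MT1G, MT1M, MT1X and MT2A, the zinc-sensing transcription factor MTF1, and the zinc exporter SLC30A1 (ZnT1). They were taken by symbol from a deposited table of 58884 genes, and all 8 were found there. RNA was sequenced from KYSE70, an established line of human squamous carcinoma of the esophagus, in 3 groups of 4 libraries. The groups were cells given 20 nM mitoxantrone (a topoisomerase II poison used against cancer), cells given 10 µM pyrimethamine (an antifolate used against malaria parasites and Toxoplasma), and control cells with no treatment, at 72 h. The study used a single line, the labels name no vehicle, and they do not say whether replicates were separate cultures, so p-values measure only the spread between these libraries, which may be technical.

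Metallothioneins are small cysteine-rich proteins that bind zinc and copper and can take up cadmium. Free zinc in the cell is sensed by MTF1, which binds metal response elements (MREs) upstream of the metallothionein genes and of SLC30A1. Metallothioneins then buffer the zinc, while SLC30A1 moves it out across the plasma membrane. Metallothionein genes are also known targets of glucocorticoids and of oxidative stress. MT2A has been described as the most abundant isoform in many human cell types.

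Within KYSE70 cells the metallothionein message was almost wholly MT2A and MT1X, with a little MT1F, and MT1E, MT1G and MT1M were close to silent in every group. The 2 drugs were associated with opposite directions for MT2A, which was 1.68-fold lower with mitoxantrone and 1.73-fold higher with pyrimethamine than in control cells. MT1X and MT1F were also lower with mitoxantrone. SLC30A1 and MTF1 were higher with pyrimethamine, whereas with mitoxantrone SLC30A1 did not pass the test and MTF1 was 1.14-fold lower, a call that 4 alternatives did not keep.

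The DNA upstream of the RefSeq starts of these genes is shown because it holds the sites through which zinc is known to act. RefSeq sequences of GRCh38.p14 were matched for 4 of the 8 genes, MT2A, MT1X, SLC30A1 and MTF1. The 250 bases before the start are printed for MT2A, MT1X and SLC30A1, together with MT1H, a nearly silent metallothionein with several MRE matches of its own. Each runs 5′ to 3′ on the gene's own strand, with MRE matches (TGCACNC or TGCGCNC, either strand) in capitals. MT2A lies at chr16:56608334-56608583 (+), MT1X at chr16:56682220-56682469 (+), SLC30A1 at chr1:211579162-211579411 (-) and MT1H at chr16:56669564-56669813 (+). The starts used are those of RefSeq, and they differ from the limits of the GENCODE genes given below. The MT2A window lies within its GENCODE gene, and the MT1X window overlaps its gene. The SLC30A1 window lies upstream of its GENCODE gene and does not adjoin it. Positions of matches depend on the start chosen.
MT2A: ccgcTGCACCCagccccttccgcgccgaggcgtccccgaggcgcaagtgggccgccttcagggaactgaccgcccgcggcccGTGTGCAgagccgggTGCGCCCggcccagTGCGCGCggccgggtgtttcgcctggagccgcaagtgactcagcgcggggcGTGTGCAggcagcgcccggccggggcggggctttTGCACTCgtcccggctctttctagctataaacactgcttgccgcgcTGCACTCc
MT1X: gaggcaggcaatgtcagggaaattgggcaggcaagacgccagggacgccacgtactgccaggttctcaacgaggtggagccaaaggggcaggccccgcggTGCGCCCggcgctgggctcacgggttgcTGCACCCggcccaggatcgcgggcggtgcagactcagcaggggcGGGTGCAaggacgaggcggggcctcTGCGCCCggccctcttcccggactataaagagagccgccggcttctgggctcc
SLC30A1: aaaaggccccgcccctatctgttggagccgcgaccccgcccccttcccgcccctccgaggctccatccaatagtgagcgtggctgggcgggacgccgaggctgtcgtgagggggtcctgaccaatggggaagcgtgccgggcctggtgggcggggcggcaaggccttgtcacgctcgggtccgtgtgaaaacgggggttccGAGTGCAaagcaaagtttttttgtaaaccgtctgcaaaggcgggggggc
MT1H: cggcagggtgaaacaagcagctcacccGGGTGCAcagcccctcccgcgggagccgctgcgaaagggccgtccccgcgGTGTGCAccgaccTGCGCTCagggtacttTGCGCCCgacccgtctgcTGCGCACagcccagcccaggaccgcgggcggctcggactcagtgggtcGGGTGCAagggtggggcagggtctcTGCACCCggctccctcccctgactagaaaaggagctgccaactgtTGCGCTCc

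Over the whole window, 250 bases before to 50 bases after the start, MT2A had 8 MRE matches, and 0.0171% of 35116 RefSeq promoters had at least 8. MT1X had 4, a number reached by 0.339% of promoters. SLC30A1 had 2, where 7.51% of promoters had at least 2, and MTF1 had none, where 29.6% had at least 1. MT1H also had 8 matches, all of them before the start, whereas 1 of those of MT2A lay after it. MT1H was listed with 2 reads over the mitoxantrone libraries, 2 over the pyrimethamine libraries and 1 over the controls. With the wider pattern TGCNCNC, which covers the narrower one, MT2A, MT1X, SLC30A1 and MT1H kept the same numbers of matches and MTF1 had 1, at least 1 being present in 55.9% of promoters. MT1B and MT4, metallothioneins with no read, had 3 matches each, and 5 and 6 with the wider pattern. Base composition was not matched in the shares of promoters.

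The same windows were searched for the core of the antioxidant response element (ARE, TGACNNNGC, either strand), the site bound by NRF2. At least 1 match was found in 13.4% of all promoters. MT2A held TGACTCAGC from base -104 to -96, between its MRE matches. MT1X held TGACATTGC on the opposite strand from -243 to -235, and SLC30A1 held TGACAAGGC on the opposite strand from -88 to -80. MTF1 and MT1H had no match in the window. A match describes letters only and does not tell which factor can bind there, and no binding was measured.

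**Figure D1:**
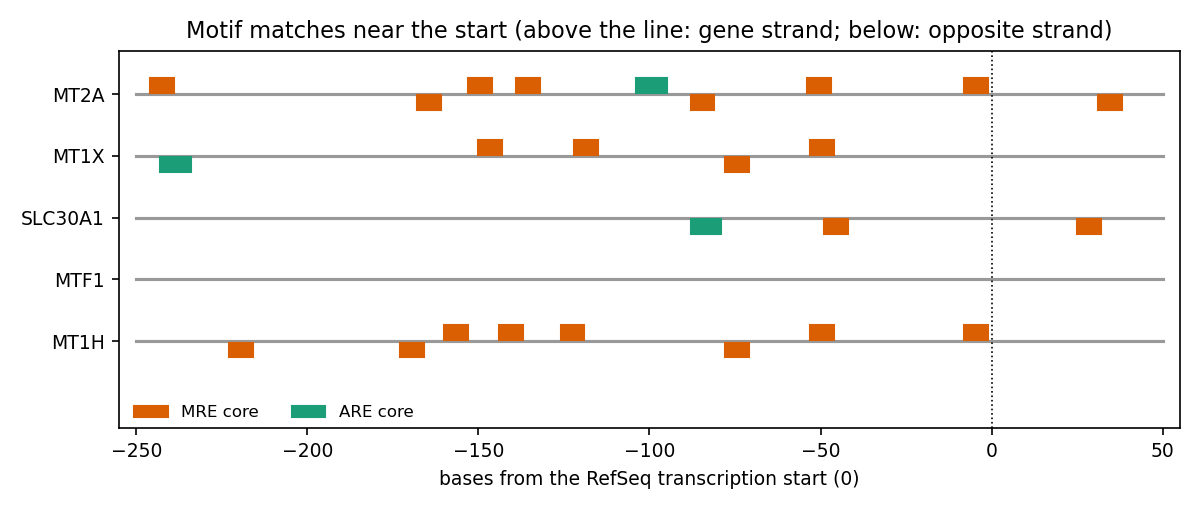
Matches to the MRE core (orange) and the ARE core (green) around the RefSeq start of 5 genes; the x axis is the distance from the start in bases, and blocks above or below each line are matches on the gene's strand or the opposite strand. MT2A and MT1H each carry 8 MRE matches, MT1X 4, SLC30A1 2 and MTF1 none.

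Libraries held 47.5 to 94.5 M assigned reads (M, mega), 793.8 M in all. The first principal component took 69.4% of the variance and the second 10.1%. Mitochondrially encoded genes took 3.23 to 3.89% of normalized counts with mitoxantrone, 6.83 to 8.33% with pyrimethamine and 6.16 to 6.69% in controls. All 7 squamous markers were tested, and their summed level was 320950 to 344470 normalized counts with mitoxantrone, 408300 to 433270 with pyrimethamine and 333220 to 358170 in controls. KRT5 and KRT6A carried this sum, and the markers did not share a direction: TP63 had a log2 change of 0.41 with mitoxantrone and -0.38 with pyrimethamine, KRT17 of -0.65 with mitoxantrone, and DSG3 of -0.74 with pyrimethamine. Of 12 markers of other cell types, 6 were tested, and 5, 0 and 3 had no read with mitoxantrone, with pyrimethamine and in controls. Their summed level, carried by COL1A1 and VWF, was 4076 to 5469 with mitoxantrone, 11657 to 13089 with pyrimethamine and 15633 to 16503 in controls. The part of these shifts in the results below was not tested.

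The deposited values are normalized counts, that is reads divided by 1 factor per library. Levels of different genes were compared per kilobase of exon. MT2A stood far above the rest, at 2903 ± 216 normalized counts per kilobase with mitoxantrone, 8452 ± 217 with pyrimethamine and 4882 ± 335 in controls (SD, n = 4 each). SLC30A1 came next, at 291 ± 22.3 with mitoxantrone, 419 ± 13.8 with pyrimethamine and 302 ± 21.5 in controls. MT1X had 225 ± 23.7 with mitoxantrone, 339 ± 12.9 with pyrimethamine and 299 ± 22.3 in controls, so that in controls SLC30A1 and MT1X did not differ beyond their spread. MTF1 had 120.3 ± 7.09 with mitoxantrone, 164 ± 4.02 with pyrimethamine and 138 ± 16.4 in controls. MT1F was lowest of the 5, at 21.97 ± 3.12 with mitoxantrone, 53.2 ± 10.6 with pyrimethamine and 47.0 ± 10.7 in controls. The places of MT1X and MT1F depend on the length used. The same counts were also divided by the length of the principal transcript, as if all reads came from it. For MT1X, of 450 bases, this gave 886 ± 93.2 with mitoxantrone, 1337 ± 50.9 with pyrimethamine and 1179.8 ± 88.1 in controls. These values were above those of SLC30A1 in each group. For MT1F, of 690 bases, the same division gave 60.1 ± 8.54 with mitoxantrone, 146 ± 28.95 with pyrimethamine and 129 ± 29.4 in controls. MTF1 on that measure had 121 ± 7.14 with mitoxantrone, 165 ± 4.04 with pyrimethamine and 139 ± 16.5 in controls, so that MT1F and MTF1 did not differ beyond their spread with pyrimethamine or in controls.

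MT1E, MT1G and MT1M, metal-inducible isoforms of the same cluster on chromosome 16, gave almost no reads. Over all 12 libraries MT1E had 2 reads, 1 each in pyrimethamine replicates 1 and 2. MT1G had 5 reads, 3 in pyrimethamine replicate 3 and 1 in pyrimethamine replicate 4, with 1 in control replicate 2. MT1M had 1 read, in control replicate 3, and no mitoxantrone library had a read of any of the 3. A count of 0 allows up to 3 reads, which is 1.98 to 3.95 normalized counts depending on the library, so no difference between groups was detectable at this depth and no fold is given. This limit covers counting error only.

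**Figure D2:**
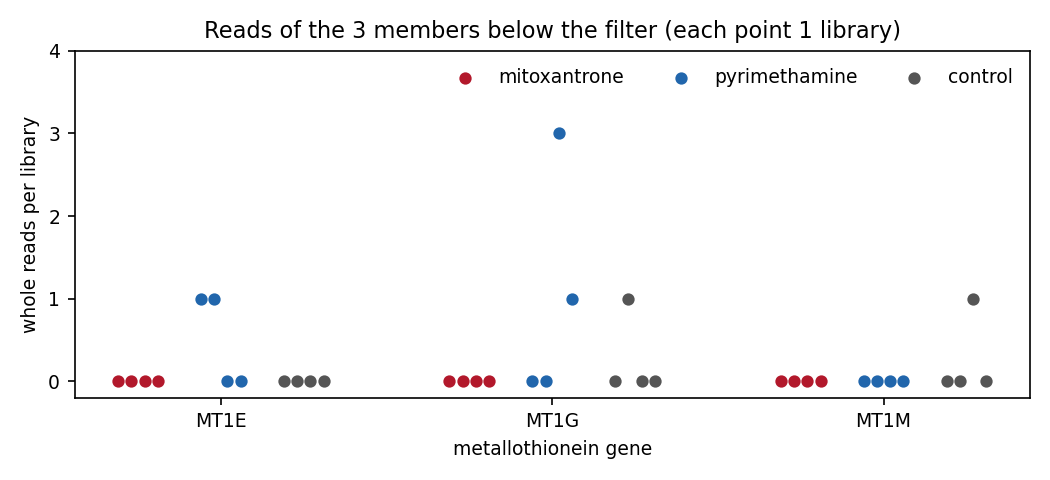
Whole reads of MT1E, MT1G and MT1M in each of the 12 libraries, with reads on the y axis and 1 point per library, coloured by group. No library has more than 3 reads of any of these genes, and all mitoxantrone libraries are at 0.

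Other metallothionein genes also stayed below the filter. Of 13 listed metallothionein genes and pseudogenes besides the 8, 5 had any read (MT1A, MT1H, MT1L, MT1P1 and MT1XP1) and none passed the filter of 10 normalized counts in at least 4 libraries. MT1A had 2 reads over the mitoxantrone libraries, 7 over the pyrimethamine libraries and 4 over the controls. MT1P1, a pseudogene, had 11 reads over the mitoxantrone libraries, 0 over the pyrimethamine libraries and 3 over the controls. The pseudogene MT1XP1 had 7 reads with mitoxantrone, 20 with pyrimethamine and 19 in controls. MT2P1, a pseudogene outside that list, had 11 reads with mitoxantrone, 18 with pyrimethamine and 11 in controls, and was not tested. MT1B, MT3 (the isoform known from brain), MT4 (the isoform known from stratified epithelium) and MT1HL1 had no read. Summed over the 12 coding metallothioneins in the table, the family had 4212 ± 304 normalized counts with mitoxantrone, 11685 ± 290.1 with pyrimethamine and 6964 ± 477 in controls (SD, n = 4 each).

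MT2A (ENSG00000125148, GRCh38 chromosome 16, 56608199 to 56609497, plus strand) is the main metallothionein of these cells. It had 3409, 3946, 3694 and 4034 normalized counts in mitoxantrone libraries, 11394, 10839, 10908 and 10776 in pyrimethamine libraries, and 6104, 6155, 6117 and 6994 in controls. All mitoxantrone libraries lay below all controls, and all pyrimethamine libraries above them. With mitoxantrone MT2A was lower than in controls by a log2 change of -0.75 (95% interval -0.86 to -0.65, limma adjusted p = 2.59e-11). With pyrimethamine it was higher by 0.79 (0.69 to 0.90, limma adjusted p = 4.46e-11). Set directly against each other, mitoxantrone cells had 2.92-fold less MT2A than pyrimethamine cells (log2 change -1.54, -1.65 to -1.44, limma adjusted p = 6.04e-17). These are RNA levels of bulk samples, in which fewer cells of a kind and less RNA per cell cannot be told apart.

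MT1X (ENSG00000187193, chromosome 16, 56682424 to 56684196, plus strand), the second metallothionein of these cells, moved less. It had 351, 448, 414 and 381 normalized counts with mitoxantrone, 591, 575, 619 and 622 with pyrimethamine, and 508, 513, 513 and 590.3 in controls. Mitoxantrone libraries were all below controls, while the pyrimethamine range met the highest control, replicate 4. With mitoxantrone MT1X was 1.33-fold lower than in controls (log2 change -0.42, -0.59 to -0.24, limma adjusted p = 1.36e-04). The pyrimethamine change of 0.18 did not pass the test (0.01 to 0.35, limma adjusted p = 0.0685), and without control replicate 4 it was 0.23 with limma adjusted p = 0.0281. Mitoxantrone cells had 1.51-fold less MT1X than pyrimethamine cells (log2 change -0.60, limma adjusted p = 1.07e-06). Of 50-base windows of its exons, 18.3% also occur in other genes, mostly in AC026461.1, which overlaps 18.1% of the exon bases of MT1X on the same strand and is listed with no read. For MT2A that share was 3.02%.

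MT1F (ENSG00000198417, chromosome 16, 56657694 to 56660698, plus strand), a further zinc-inducible isoform, was scarce and more variable. It had 47.5, 42.9, 33.4 and 42.2 normalized counts with mitoxantrone, 125, 108, 89.0 and 79.9 with pyrimethamine, and 111, 87.9, 62.3 and 93.5 in controls. Every mitoxantrone library was below every other library, and pyrimethamine and control libraries overlapped. MT1F was 2.08-fold lower with mitoxantrone than in controls (log2 change -1.06, -1.48 to -0.64, limma adjusted p = 9.14e-05). With pyrimethamine the change of 0.19 did not pass the test and its interval was wide (-0.24 to 0.61, limma adjusted p = 0.462). It was 0.03 without control replicate 3, 0.08 without pyrimethamine replicate 1, 0.30 without control replicate 1 and 0.04 under quantile normalization, and none of these passed either. Mitoxantrone cells had 2.37-fold less MT1F than pyrimethamine cells (log2 change -1.25, limma adjusted p = 1.00e-05). Its coefficient of variation was 14.2% with mitoxantrone, 19.9% with pyrimethamine and 22.8% in controls, while that of MT2A was 7.44% with mitoxantrone, 2.57% with pyrimethamine and 6.86% in controls.

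SLC30A1 (ENSG00000170385, chromosome 1, 211571568 to 211578742, minus strand) carries zinc out of the cell and is a known MTF1 target. It had 1634, 1718, 1427 and 1582 normalized counts with mitoxantrone, 2387, 2309.9, 2256 and 2211 with pyrimethamine, and 1802, 1625, 1667 and 1517 in controls. Pyrimethamine libraries were above all others, and the mitoxantrone and control libraries overlapped, with mitoxantrone replicate 3 below every control. SLC30A1 was 1.39-fold higher with pyrimethamine than in controls (log2 change 0.47, 0.35 to 0.59, limma adjusted p = 6.82e-07). With mitoxantrone the change of -0.06 did not pass the test (-0.18 to 0.07, limma adjusted p = 0.405), though it reached -0.16 (limma adjusted p = 0.0257) under scaling of all libraries to a common total. Mitoxantrone cells had 1.44-fold less SLC30A1 than pyrimethamine cells (log2 change -0.53, limma adjusted p = 4.07e-08).

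MTF1 (ENSG00000188786, chromosome 1, 37809567 to 37859620, minus strand), the zinc sensor itself, is known to be controlled largely through its protein rather than its message. It had 1037, 972, 951 and 899.5 normalized counts with mitoxantrone, 1275, 1350.0, 1313 and 1334 with pyrimethamine, and 1041, 1209, 1219 and 950.0 in controls. Pyrimethamine libraries were above all controls, which spread widely and overlapped the mitoxantrone libraries. MTF1 was 1.199-fold higher with pyrimethamine than in controls (log2 change 0.26, 0.12 to 0.41, limma adjusted p = 0.00355). With mitoxantrone it was lower by a log2 change of -0.19 (-0.34 to -0.04, limma adjusted p = 0.0221). That call was lost without control replicate 2 (-0.14, limma adjusted p = 0.0981), without control replicate 3 (-0.14, limma adjusted p = 0.0992) and without mitoxantrone replicate 4 (-0.16, limma adjusted p = 0.0719). Mitoxantrone cells had 1.37-fold less MTF1 than pyrimethamine cells (log2 change -0.45, limma adjusted p = 5.98e-06).

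**Figure D3:**
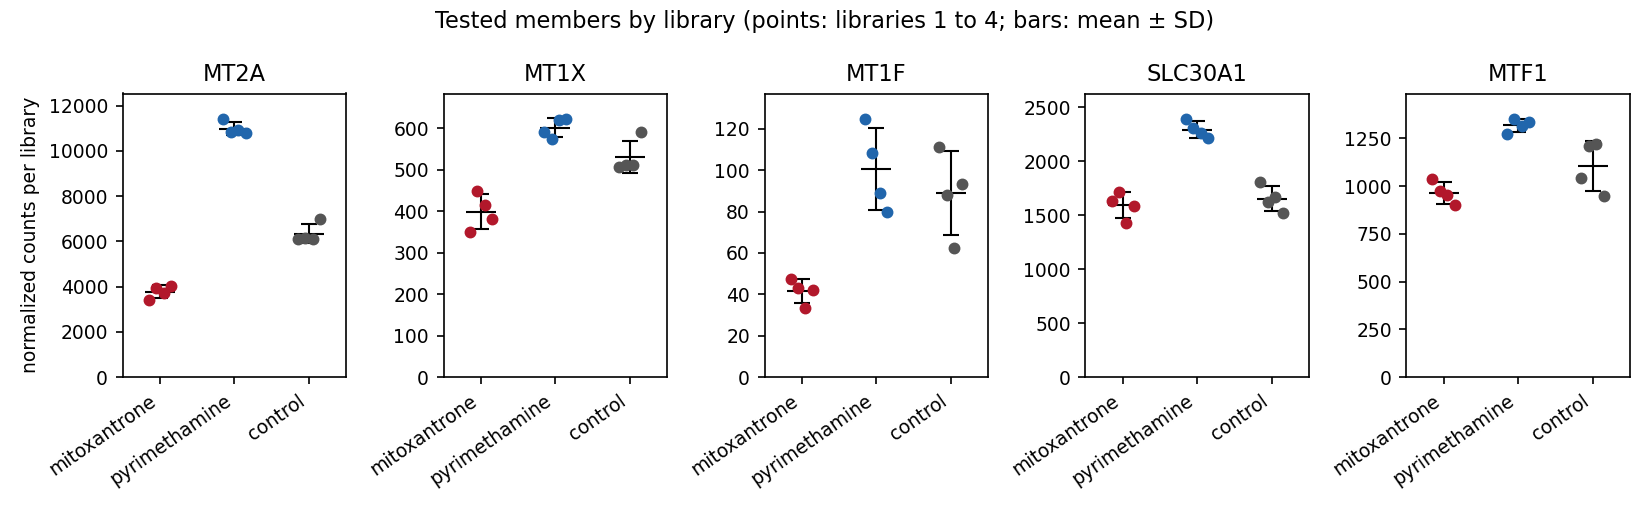
Normalized counts (y axis, from 0) of MT2A, MT1X, MT1F, SLC30A1 and MTF1 in each library of the mitoxantrone, pyrimethamine and control groups, with points for libraries and bars for the mean ± SD of 4. MT2A separates all 3 groups, SLC30A1 separates pyrimethamine from the others, and control replicate 4 stands above its group for MT2A and MT1X.

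**Figure D4:**
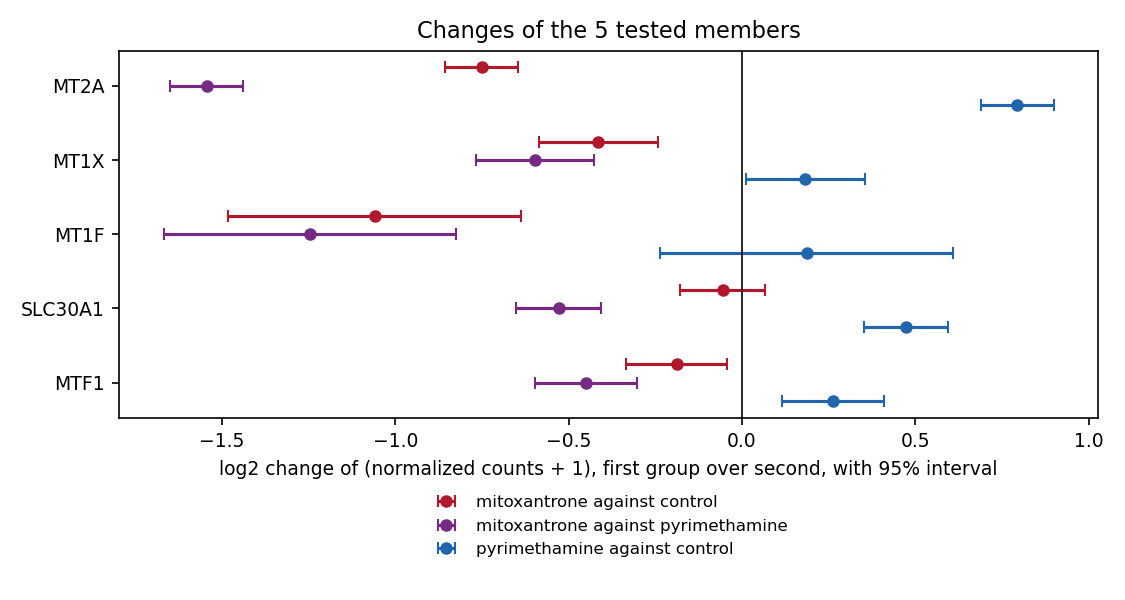
Log2 changes (x axis) with 95% intervals of the 5 tested genes in the 3 comparisons, fitted with limma on log2(normalized counts + 1). Changes of MT2A range from -1.54 (mitoxantrone against pyrimethamine) to 0.79 (pyrimethamine against control), and the interval of MT1F spans 0 for pyrimethamine against control.

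Of the 8 genes, 5 passed the filter. With mitoxantrone 4 of these 5 were called lower and none higher, where 35.8% of all 16950 tested genes were called lower and 33.5% higher (69.3% in either direction). The gene not called was SLC30A1. With pyrimethamine 3 of the 5, MT2A, SLC30A1 and MTF1, were called higher and none lower, where 26.4% of all genes were called higher and 26.9% lower (53.3% in either direction). Mitoxantrone against pyrimethamine called all 5 lower, where 39.5% of all genes were called lower and 36.9% higher (76.4% in either direction). With most of all genes called in each comparison, a call alone sets none of these genes apart. Libraries of the 2 groups did not overlap, with mitoxantrone lower, for 3 of the 5 genes against control (MT2A, MT1X and MT1F), where this held for 31% of all genes (29.9% with mitoxantrone higher). Pyrimethamine libraries were higher with no overlap for 3 of the 5 against control (MT2A, SLC30A1 and MTF1), where this held for 25.8% of all genes (25.4% with pyrimethamine lower). For mitoxantrone against pyrimethamine all 5 were lower with no overlap, where this held for 35.5% of all genes (33.3% with mitoxantrone higher). The median log2 change of the 5 was -0.42 with mitoxantrone (all tested genes -0.0080), 0.26 with pyrimethamine (all tested genes 0.0018) and -0.60 between the drugs (all tested genes -0.024). Of all tested genes, 17.98% had a log2 change below that of MT2A with mitoxantrone and 92.87% with pyrimethamine. Both drugs were compared with the same 4 control libraries, so the 2 sets of changes are not independent. Under scaling of all libraries to a common total, the median log2 change of all genes with mitoxantrone was -0.11 instead of -0.0080, and higher calls were 38.0% of all calls instead of 48.4%.

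Whether the metallothioneins changed by unequal amounts was described by their ratios. The log2 ratio of MT2A to MT1X within a library was 3.24 ± 0.123 with mitoxantrone, 4.19 ± 0.0748 with pyrimethamine and 3.58 ± 0.00934 in controls (SD, n = 4 each). No library of one group fell within the range of another. Each of the 3 differences, -0.34 for mitoxantrone minus control, 0.61 for pyrimethamine minus control and -0.95 for mitoxantrone minus pyrimethamine, had p = 0.0286 in a two-sided exact permutation test, the smallest that 4 against 4 allows. Adjusted over the 9 ratio tests made, which were chosen after the values had been seen, these became 0.0857, which does not pass 0.05. With 4 libraries per group, no adjusted value can pass 0.05 when only 3 of 9 tests reach the smallest p. The adjusted values therefore cannot decide whether the changes were unequal. Apart from the 1 added to each value before the log, a ratio within a library does not depend on its scaling. For MT2A over MT1F the differences were 0.31 for mitoxantrone minus control (exact permutation p = 0.257, adjusted 0.289), 0.61 for pyrimethamine minus control (exact permutation p = 0.0571, adjusted 0.0857) and -0.30 between the drugs (exact permutation p = 0.171, adjusted 0.22). For MT1F over MT1X they were -0.64 for mitoxantrone minus control and -0.65 between the drugs (exact permutation p = 0.0571, adjusted 0.0857, for each), and 0.0042 for pyrimethamine minus control (exact permutation p = 1.0).

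The make-up of the metallothionein message is given by the shares of its 3 tested genes. MT2A took 89.5% of the family's normalized counts with mitoxantrone (88.9 to 90.5% over libraries), 93.96% with pyrimethamine (93.9 to 94.1%) and 91.1% in controls (90.8 to 91.4%), without correction for length. MT1X took 9.47% with mitoxantrone (8.55 to 10.1%), 5.15% with pyrimethamine (4.88 to 5.42%) and 7.62% in controls (7.55 to 7.69%). MT1F took 0.992% with mitoxantrone (0.806 to 1.25%), 0.858% with pyrimethamine (0.696 to 1.03%) and 1.28% in controls (0.930 to 1.66%), and these ranges overlap. As CPM of all normalized counts, the family made up 62.9 ± 4.09 with mitoxantrone, 179.9 ± 5.22 with pyrimethamine and 112 ± 7.52 in controls (SD, n = 4 each).

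Other zinc transporters were called in both directions with each drug. Of 9 further genes of the SLC30 family of zinc transporters, 6 were tested. With mitoxantrone SLC30A5 and SLC30A9 were called higher, SLC30A3 and SLC30A4 lower, and SLC30A6 and SLC30A7 were not called (median log2 change -0.06). SLC30A4 had 596 ± 51.2 normalized counts with mitoxantrone and 759.6 ± 57.3 in controls (log2 change -0.35, limma adjusted p = 2.59e-04), and SLC30A9 had 6485 ± 307 and 5337 ± 181 in those groups (0.28, limma adjusted p = 2.77e-06). Under scaling to a common total 1 of the 6 was called higher and 4 lower with mitoxantrone, under quantile normalization 1 and 3, and under upper-quartile scaling 1 and 2, with SLC30A5 not called in any of them. Of all tested genes 33.5% were called higher and 35.8% lower with mitoxantrone. With pyrimethamine SLC30A6, SLC30A7 and SLC30A9 were called higher, SLC30A5 lower, and SLC30A3 and SLC30A4 were not called (median 0.06), where 26.4% of all genes were called higher and 26.9% lower. SLC30A5, which loads zinc into the early secretory pathway, had 2318 ± 164 with pyrimethamine and 3248 ± 119 in controls (log2 change -0.49, limma adjusted p = 2.36e-08). The SLC30A6 call with pyrimethamine was lost under scaling of all libraries to a common total. Mitoxantrone against pyrimethamine called SLC30A5 and SLC30A9 higher, SLC30A4, SLC30A6 and SLC30A7 lower and SLC30A3 not, and the SLC30A9 call was lost under each of the 3 other scalings. For this comparison between the drugs, here and in the lists that follow, 36.9% of all genes were called higher and 39.5% lower.

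The SLC39 genes (ZIP proteins) bring zinc into the cytosol, and 11 of 14 were tested. With mitoxantrone 6 were called higher and 2 lower (median log2 change 0.12), where 33.5% of all genes were called higher and 35.8% lower. Under scaling to a common total 3 were called higher (SLC39A10, SLC39A11 and SLC39A13) and 3 lower (SLC39A1, SLC39A8 and SLC39A14). The lower ones were SLC39A8, at 21.6 ± 12.1 normalized counts with mitoxantrone and 76.6 ± 9.62 in controls (log2 change -1.97, limma adjusted p = 1.36e-05), and SLC39A1, at 84.8 ± 5.57 with mitoxantrone and 232 ± 17.8 in controls (-1.44, limma adjusted p = 9.55e-10). SLC39A8 is a plasma membrane importer of zinc, manganese and cadmium, and SLC39A1 is a widely expressed zinc importer. With pyrimethamine SLC39A9 and SLC39A10 were called higher and SLC39A6, SLC39A7 and SLC39A11 lower (median -0.07), where 26.4% of all genes were called higher and 26.9% lower. SLC39A10, an importer of the cell surface, had 2836 ± 177 with pyrimethamine and 1708 ± 34.9 in controls (log2 change 0.73, limma adjusted p = 3.32e-10), and with mitoxantrone 2337 ± 166 (0.45 against control, limma adjusted p = 1.71e-07). SLC39A11 had 539.6 ± 24.2 with pyrimethamine and 793 ± 23.9 in controls (-0.56, limma adjusted p = 1.11e-07). Between the drugs 4 importers were called higher with mitoxantrone (SLC39A6, SLC39A7, SLC39A11 and SLC39A13) and 3 lower (SLC39A1, SLC39A8 and SLC39A10), with a median of 0.02. Under each of the 3 other scalings 4 were called higher and 4 lower.

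**Figure D5:**
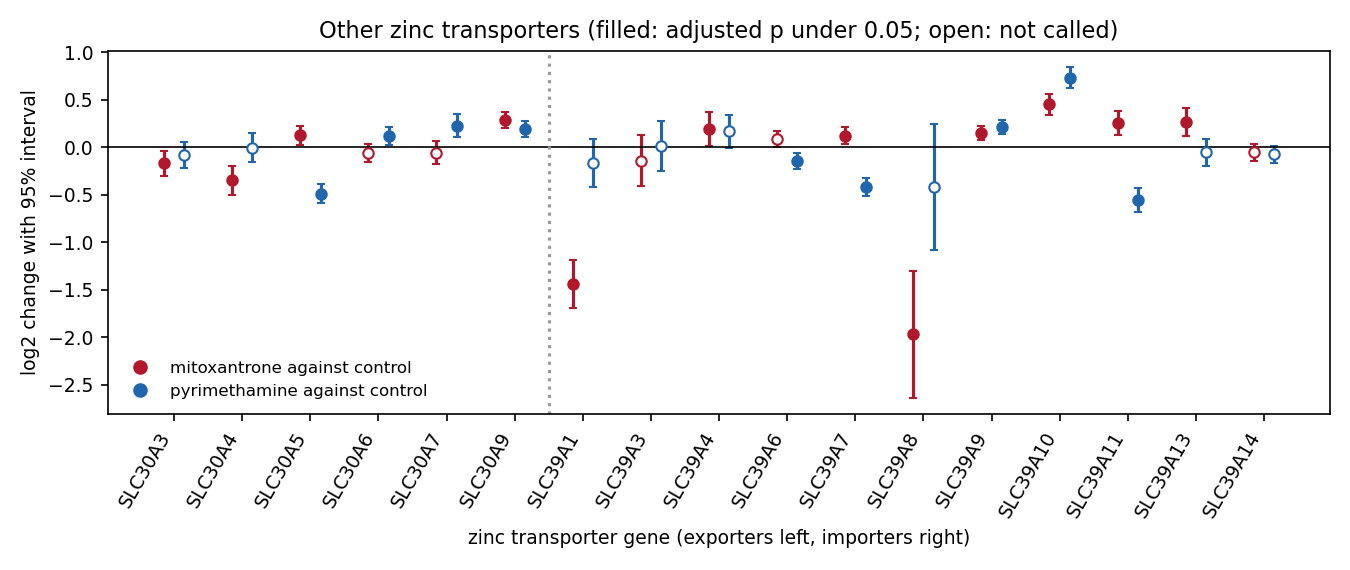
Log2 changes with 95% intervals (y axis) of the 17 tested zinc transporter genes other than SLC30A1, for mitoxantrone against control and pyrimethamine against control. Along the x axis, SLC30 genes, labelled as exporters, are to the left of the dotted line and SLC39 genes, labelled as importers, to the right. Filled points have limma adjusted p under 0.05, and SLC39A8 (-1.97) and SLC39A1 (-1.44) lie lowest.

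Metallothioneins also bind copper, and 9 of 10 copper-handling genes were tested. With mitoxantrone COX17 and COMMD1 were called higher and 6 genes lower, while ATP7B was not called (median log2 change -0.31). With pyrimethamine 7 were called higher and SLC31A1, the main copper importer, lower, while ATP7A was not called (median 0.40). The widest range was that of CP (ceruloplasmin, the copper-binding ferroxidase of plasma), at 27.2 ± 6.64 normalized counts with mitoxantrone, 238 ± 23.7 with pyrimethamine and 119.9 ± 11.7 in controls. Its log2 change was -2.12 with mitoxantrone (limma adjusted p = 4.95e-10), 0.98 with pyrimethamine (limma adjusted p = 5.55e-05) and -3.10 between the drugs (limma adjusted p = 4.11e-13). COX17, a copper chaperone of cytochrome oxidase, was higher with each drug than in controls (0.77 with mitoxantrone, limma adjusted p = 4.06e-11, and 0.51 with pyrimethamine, limma adjusted p = 6.63e-08). Mitoxantrone against pyrimethamine called COX17 and COMMD1 higher and 6 lower (median -0.50), with the COMMD1 call lost under each of the 3 other scalings. Of all tested genes, 35.8% were called lower with mitoxantrone, where 6 of these 9 were, and 26.4% higher with pyrimethamine, where 7 of these 9 were. Under scaling to a common total these counts were 7 lower with mitoxantrone and 6 higher with pyrimethamine.

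Of 10 heat shock and metal stress genes, all tested, mitoxantrone called 4 higher (HSPA1B, DNAJB1, HSPH1 and HMOX1) and 2 lower (HSPA6 and HSPB1), with a median of 0.03, where 33.5% of all genes were called higher and 35.8% lower. These counts were 3 higher and 4 lower under a common total and under quantile normalization, and 3 higher and 3 lower under upper-quartile scaling. Quantile normalization turned HSPH1 to a lower call. Pyrimethamine called 4 higher (DNAJB1, HSPB1, BAG3 and HSF1) and 3 lower (HSPA8, HSPH1 and HMOX1), with a median of -0.07, where 26.4% of all genes were called higher and 26.9% lower. Libraries of HSPB1 overlapped the controls with each drug, and those of DNAJB1 overlapped them with mitoxantrone. HMOX1 (heme oxygenase 1), which metals and NRF2 are known to induce, had 4442 ± 331 normalized counts with mitoxantrone, 1527 ± 118 with pyrimethamine and 3254 ± 135 in controls. The order of the groups for HMOX1 was the reverse of that for MT2A, and the cause was not tested. HMOX1 had a log2 change of 0.45 with mitoxantrone (limma adjusted p = 5.95e-07) and -1.09 with pyrimethamine (limma adjusted p = 2.53e-12). HSPA6, a heat shock gene known for strict inducibility, had 20.2 ± 13.3 with mitoxantrone and 91.7 ± 6.85 in controls (-2.37, limma adjusted p = 1.83e-06). Between the drugs 4 genes were called higher with mitoxantrone (HSPA1B, HSPA8, HSPH1 and HMOX1, 1.54) and 4 lower (HSPA6, -2.13, with HSPB1, BAG3 and HSF1).

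Because glucocorticoids induce MT2A, a list of their known targets was described too, of which 8 were tested. With mitoxantrone TSC22D3 (0.82) and KLF9 (0.71) were called higher and 5 lower (FKBP5, SGK1, DUSP1, ERRFI1 and CEBPD), with a median of -0.28, where 33.5% of all genes were called higher and 35.8% lower. For KLF9 the mitoxantrone libraries, at 135 to 296 normalized counts, overlapped the controls, at 83.1 to 146. DUSP1 libraries of these groups overlapped too. The DUSP1 and CEBPD calls were lost under quantile normalization. With pyrimethamine 4 were called higher (KLF9, SGK1, DUSP1 and ERRFI1) and 2 lower (FKBP5 and NR3C1, the receptor itself), with a median of 0.22, where 26.4% of all genes were called higher and 26.9% lower. KLF9 changed most with pyrimethamine, at 232 ± 39.0 normalized counts against 111 ± 26.3 in controls (log2 change 1.07, limma adjusted p = 1.35e-04). Between the drugs ERRFI1 (-1.22), SGK1 (-1.11), DUSP1 (-1.11) and CEBPD (-0.35) were called lower with mitoxantrone and TSC22D3 and NR3C1 higher, with a median of -0.36.

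Genes with the pattern closest to a given member were sought among 11834 tested genes with a mean of at least 100, by the root mean square difference of centred log2 values over the 12 libraries. Closest to MT2A were SELENOM (0.0673), TXNDC17 (0.0806) and MOSPD1 (0.0904), where the median over all genes was 0.677. SELENOM, a selenoprotein of the endoplasmic reticulum, had log2 changes of -0.79 with mitoxantrone and 0.80 with pyrimethamine, beside -0.75 and 0.79 for MT2A. Closest to MT1X were BRMS1 (0.0566), BCAR3 (0.0582) and DGCR6L (0.0650), with a median of 0.355 over all genes. Closest to SLC30A1 were ABHD17B (0.0717), NSMF (0.0738) and BOK (0.0790), with a median of 0.343. These are descriptions over 12 libraries in 3 groups, chosen by likeness, and carry no test.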

How the data were processed

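RNA libraries of KYSE70 cells were made by a standard Illumina protocol, per the labels. Per the submitters' processing notes, the builds were hg38 and mm10 and the tools STAR 2.6.90c, featureCounts 1.5.1, cutadapt 1.12 and FastQC 0.11.5. Each deposited value is a gene's signal in 1 library, normalized by the authors, and all gene IDs were human. Multiplied by 1 factor per library, 100.0% of the deposited values gave whole reads within 0.01 read. The factors equal median-of-ratios size factors recomputed from those reads to within 0.000318%. The tool used for them, whether counting used strand and how reads over several genes were counted are not given in the sources used here.

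Genes with at least 10 normalized counts in at least 4 of 12 libraries (16950 of 58884) were tested with limma 3.58.1 (R 4.3.3) on log2(value + 1), two-sided, with 1 spread estimate over the 3 groups. Fold changes are on that scale, which understates changes of low genes. Adjusted p-values are Benjamini-Hochberg over all tested genes, with calls at 0.05. Recovered reads were tested with edgeR 4.0.16 (quasi-likelihood) and DESeq2 1.42.0 as alternatives, and scripts were tested on simulated data. Gene coordinates are from GENCODE release 29 and upstream sequences from RefSeq GRCh38.p14. Libraries held 47.5 to 94.5 M reads (M, mega), and 3 reads correspond to 1.98 to 3.95 normalized counts.

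The members and gene lists were chosen with earlier results of these data known. Named were all 8 members and, from each list, called genes with a log2 change of at least 1 (at most 4), otherwise the 2 called genes with the largest change, plus genes that make up a count of 5 or fewer. Markers of other cell types are given by counts.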

Additional observations from a re-analysis of the deposited data

Results flagged for a closer look

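Control replicate 4 stood apart from the other controls for 2 of the 5 tested genes. It had 6994 normalized counts of MT2A, where the other controls began at 6104, and its gap to the nearest was 0.942 of the group's range. It had 590.3 normalized counts of MT1X, where the other controls began at 508, with a gap of 0.94 of the range. Chance alone gives about 1 such value in 20 groups, and 15 groups were looked at. The library was also the shallowest, with 47.5 M reads, and had the lowest MTF1 and the lowest SLC30A1 of its group. Without it, MT2A changed by a log2 of -0.70 with mitoxantrone (limma adjusted p = 1.58e-10) and 0.84 with pyrimethamine (limma adjusted p = 6.16e-11). MT1X changed by -0.36 with mitoxantrone (limma adjusted p = 9.34e-04) and 0.23 with pyrimethamine (limma adjusted p = 0.0281), and with all libraries that pyrimethamine change did not pass the test.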

How the results depend on the processing

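Each comparison was refitted under 21 alternatives, giving 312 values for the 5 tested genes, of which 303 stayed on their side of the threshold and 0 reversed. MT1X with pyrimethamine gained a call under quantile normalization (0.23, limma adjusted p = 0.0247), with the 8 libraries of the comparison alone (0.18, 0.0319), without control replicate 4 (0.23, 0.0281) and with DESeq2 (0.19, 0.0419). MTF1 with mitoxantrone lost its call when the variance trend was left out (-0.19, limma adjusted p = 0.0535) and without 3 single libraries, named above. SLC30A1 with mitoxantrone gained one under scaling to a common total (-0.16, limma adjusted p = 0.0257). The cause was not tested. MT1F gave no value under a filter of a mean of at least 100, since it fails that filter.

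Over all alternatives 9283 to 12027 genes were called with mitoxantrone, 7886 to 9810 with pyrimethamine and 10000.0 to 14665 between the drugs. Leaving out each library in turn gave 11193 to 11717 genes with mitoxantrone, 8299 to 8562 with pyrimethamine and 12565 to 12900 between the drugs. No pairing by replicate number was seen, since correlations of same-numbered libraries ran from -0.0133 to 0.0295 and most libraries correlated best with another number. The labels do not say whether same-numbered libraries were handled together. With a replicate block 11749 genes were called with mitoxantrone, 9057 with pyrimethamine and 12931 between the drugs, and no call of the 5 genes changed (MT1X with pyrimethamine, limma adjusted p = 0.0755). MT1F, at 33.4 to 125 normalized counts, and the 3 genes near 0 are the members for which depth limits what can be seen.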
